A study of Mus musculus with 6 samples.

Results

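The p53 pathway genes examined here are 39 listed regulators and known target genes of p53, the transcription factor that halts or kills cells after DNA damage and other stress. They were compared in mouse embryonic fibroblasts (MEFs), cells grown out of the connective tissue of embryos, with (Atxn3-WT) and without (Atxn3-KO) a working Atxn3 gene. Atxn3 encodes ataxin-3, the deubiquitinase whose polyglutamine expansion causes spinocerebellar ataxia type 3, and the comparison asks how its loss affects transcription. Expression was measured on 6 Affymetrix arrays, 3 of Atxn3-WT MEFs and 3 of Atxn3-KO MEFs, with no treatment named in the labels of either group. The methods name Atxn3-KO mice and wildtype littermates, call the 3 samples of a genotype biological replicates and elsewhere refer to a MEF line of each genotype. Whether the 3 came from separate embryos or from 1 line, and whether the cells were primary or immortalized, is stated neither in the labels nor in the methods, so a p-value here weighs a difference against the scatter of these 6 arrays, some or all of which may be technical. A gene was represented by the probe set that names it alone and has the highest mean level over all 6 arrays. On this rule 35 of the 39 genes were measured, of 18193 genes in all. Trp53 itself, Bax, Fdxr and Gdf15 are named alone by 0 probe sets in the annotation used here, so they were not analysed here.

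The p53 protein is made continuously and destroyed continuously. Mdm2 marks it for the proteasome and Mdm4 blocks its activation domain, and since p53 induces Mdm2, the pathway carries its own brake. When the brake is released, p53 binds a pair of short half-sites near its targets and raises genes for cell cycle arrest, for death through mitochondria or death receptors, for restraint of growth and metabolism, and for DNA repair. Fibroblasts from embryos are a classical system for this pathway, because p53 limits their growth in culture.

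Promoter sequence of the measured genes was taken from RefSeq (GRCm38.p6), from 250 bases before to 50 bases after each annotated start, and searched for the p53 half-site of 10 bases, whose consensus reads the same on both strands. Of the 35 measured genes, 26 have a window in this table, and 8 of the 26 (30.8%) hold at least 1 half-site, beside 8.59% of the 14452 array genes that have a window. The list was made of known p53 regulators and targets, so this difference is not independent of how the genes were chosen. A gene with several annotated starts also has more windows in which a match can fall. Neither the 8 nor the other 18 hold a full site of exact matches, meaning 2 exact half-sites with at most 13 bases between them. Such a site stands in 0.074% of all 27025 genes of the table. Only exact matches to the consensus are marked, so a full site with a mismatched base was missed. In Ccng1, the 10 bases just before the marked half-site are such a near match. A match is a description of these letters and not evidence of binding, and response elements outside the window were not searched. The 250 bases upstream of Mdm2 and Ccng1 are shown because they are the classical feedback target that did not pass the test and a target that rose. For the other genes with a match upstream of an annotated start, the half-site and its flanks are shown. Capitals mark the half-site, and the strand is that of the gene.
Mdm2 (chr10:117710759-117711008, - strand): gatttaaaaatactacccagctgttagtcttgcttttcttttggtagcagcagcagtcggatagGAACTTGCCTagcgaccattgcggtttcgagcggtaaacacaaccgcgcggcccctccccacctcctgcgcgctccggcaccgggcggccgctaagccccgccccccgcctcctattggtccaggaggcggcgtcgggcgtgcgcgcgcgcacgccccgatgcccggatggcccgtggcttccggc
Ccng1 (chr11:40755287-40755536, - strand): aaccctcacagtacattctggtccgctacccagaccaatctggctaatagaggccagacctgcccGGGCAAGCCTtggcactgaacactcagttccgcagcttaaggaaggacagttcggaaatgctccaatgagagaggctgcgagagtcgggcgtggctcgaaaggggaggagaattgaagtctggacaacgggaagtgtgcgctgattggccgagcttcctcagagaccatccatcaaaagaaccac
Gadd45a (chr6:67037428-67037457, - strand): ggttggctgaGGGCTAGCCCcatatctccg
Ei24 (chr9:36797335-36797354, - strand): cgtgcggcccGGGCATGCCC
Aen (chr7:78895927-78895956, + strand): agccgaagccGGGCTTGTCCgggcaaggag
Polk (chr13:96519399-96519428, - strand): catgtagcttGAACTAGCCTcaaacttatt
Ppm1d (chr11:85311112-85311141, + strand): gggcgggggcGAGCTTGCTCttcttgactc
Sesn1 (chr10:41887256-41887285, + strand): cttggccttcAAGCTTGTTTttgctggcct
The half-site begins 186 bases before the start in Mdm2, 185 in Ccng1, 40 in Gadd45a, 10 in Ei24, 121 in Aen, 231 in Polk, 132 in Ppm1d and 173 in Sesn1. Aen, Polk and Sesn1 have other annotated starts, and the one shown carries the match. As described below, Ccng1, Gadd45a, Ei24, Aen and Polk rose in Atxn3-KO MEFs, and Mdm2, Ppm1d and Sesn1 did not pass the test. Of the 18 genes with a window and no half-site, 10 rose, 3 fell and 5 did not pass. Over all genes 17.1% rose and 14.7% fell. Whether genes with and without a half-site differ was not tested.

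The p53 pathway genes moved mainly upward in Atxn3-KO MEFs. Of the 35 measured genes, 20 rose, 5 fell and 10 did not pass an adjusted p under 0.05 from limma. The share that rose was 57.1%, against 17.1% of all genes measured, and the share that fell was 14.3%, against 14.7% of all genes. These shares describe the list and are not independent evidence, because the genes were chosen with earlier results of these data known. Only 2 of the 35, Trp73 and Sfn, had a mean level under the median of all probe sets, and bright genes pass more often. Among the 11462 genes at or above that median, 24.1% rose and 20.7% fell, and of the 33 p53 pathway genes among them, 19 rose and 5 fell. The level is a mean over both genotypes. Perp, 1 of the 19, reached it only through the Atxn3-KO arrays, with means of 5.27 in Atxn3-WT and 7.25 in Atxn3-KO MEFs. Eda2r had a mean of 5.99 in Atxn3-WT MEFs, where array medians were 5.98 to 6.0. The median log2 fold change of the 35 genes was 0.20, while that of all genes was 0.0021. Most changes were small: 1 gene, Perp, passed the stricter limits of the study's methods (adjusted p no higher than 0.001, change of 2-fold or more), which 1.93% of all genes passed. The 3 Atxn3-KO arrays lay above the 3 Atxn3-WT arrays for 23 of the 35 genes, beside 25.3% of all genes, and below them for 5, beside 23.9%. The measured genes lie on 15 chromosomes, and 0 lie on the chromosome of Atxn3. In these bulk samples, fewer cells of a type and less RNA per cell cannot be told apart.

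**Figure D1:**
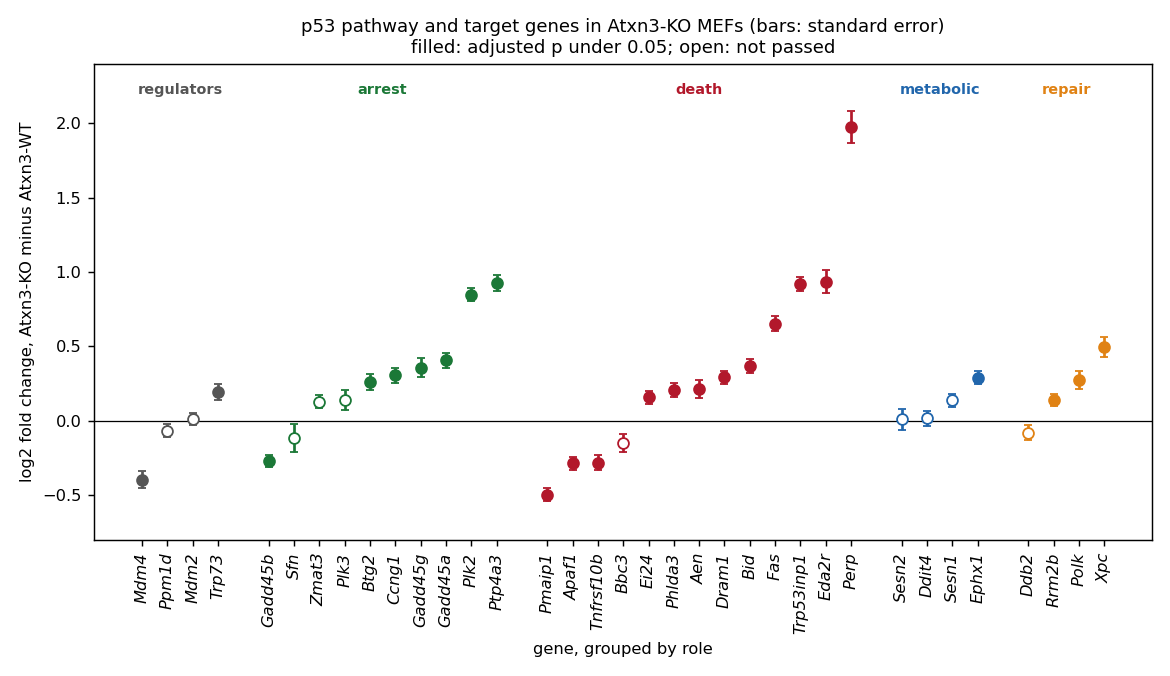
Log2 fold change, Atxn3-KO minus Atxn3-WT (vertical axis), of the 35 measured p53 pathway genes, grouped by role (horizontal axis). Points are limma estimates, bars are standard errors, and filled points passed an adjusted p under 0.05; 20 filled points lie above 0 and 5 lie below, with Perp highest at 1.97 and Pmaip1 lowest at -0.49.

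The targeted gene and a few facts of the arrays bear on all results. The brightest Atxn3 probe set had log2 levels of 6.53, 6.81 and 6.66 in the Atxn3-WT replicates and of 3.60, 3.43 and 3.73 in the Atxn3-KO replicates. All 3 arrays labelled Atxn3-KO lay far below the others. The median log2 level of an array ranged from 5.97 to 6.0. The mean log2 level over 11 fibroblast markers was 11.56 to 11.58 in the Atxn3-WT replicates and 11.33 to 11.36 in the Atxn3-KO replicates, although Lum lay at 3.54 to 3.80 in Atxn3-WT MEFs, under the 25th percentile of those arrays. Of the 11, 3 rose (27.3%, beside 17.1% of all genes and 24.1% of genes at or above the median level). The other called markers, 5 in number, fell (45.5%, beside 14.7% and 20.7%). Among those called were Dcn, which rose by 1.91 on the log2 scale, Lum, which rose by 0.60, and Thy1, which fell by 4.21. Without Thy1, left out after its values were seen, the mean was 11.58 to 11.60 in the Atxn3-WT replicates and 11.74 to 11.78 in the Atxn3-KO replicates. Of 10 macrophage and 7 endothelial markers, 0 passed the test, and at an unadjusted p under 0.05 limma called 3 macrophage and 0 endothelial markers.

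Of the genes that set the activity of p53, Mdm4 fell and Mdm2 did not pass the test. Mdm4, which encodes the relative of Mdm2 that inhibits p53 as a transcription factor, had log2 levels of 9.33, 9.19 and 9.17 in the Atxn3-WT replicates and of 8.84, 8.79 and 8.88 in the Atxn3-KO replicates. The groups did not overlap, and the log2 fold change was -0.40 (SE 0.057, limma adjusted p = 0.0022). A dimmer Mdm4 probe set had -0.43 (limma adjusted p = 0.00328), and its 2 dimmest had -0.051 and -0.0025. For Mdm2, the ubiquitin ligase that p53 induces, the log2 levels were 10.38, 10.43 and 10.38 in the Atxn3-WT replicates and 10.39, 10.41 and 10.41 in the Atxn3-KO replicates. The groups overlapped, and the log2 fold change of Mdm2 was 0.013 with a 95% confidence interval from -0.085 to 0.11. Ppm1d, the phosphatase Wip1 that turns off damage signaling, had -0.066 (interval -0.17 to 0.036), and its other probe set had 0.15 (limma adjusted p = 0.0905). Trp73, the p53 family member p73, rose by 0.20 on the log2 scale (SE 0.053, limma adjusted p = 0.032) from a dim mean level of 5.51, and its other probe set had -0.13 (limma adjusted p = 0.512). The Trp73 call was lost when any 1 array other than Atxn3-WT replicate 2 was left out.

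Arrest genes mostly rose. Of 10 measured genes of this role, 6 rose, 1 fell and 3 did not pass, with a median log2 fold change of 0.28. The share that rose was 60%, beside 17.1% of all genes, and the share that fell was 10%, beside 14.7%. The largest changes were those of a phosphatase and a kinase. Ptp4a3, the phosphatase PRL-3, had log2 levels of 8.14, 8.0 and 7.99 in the Atxn3-WT replicates and of 8.93, 8.97 and 9.0 in the Atxn3-KO replicates. Every Atxn3-KO array lay above every Atxn3-WT array by at least 0.79, and the change was 1.90-fold (log2 fold change 0.93, SE 0.055, limma adjusted p = 4e-05). Plk2, a polo-like kinase of the centrosome and of stress responses, had 10.93, 10.99 and 10.92 in the Atxn3-WT replicates and 11.76, 11.79 and 11.84 in the Atxn3-KO replicates. The gap between the groups was 0.77, and the change was 1.80-fold (log2 fold change 0.85, SE 0.045, limma adjusted p = 2.19e-05). The other probe sets of Ptp4a3 and Plk2 had values of -0.010 and -0.031, from dim levels of at most 4.92 and 4.49.

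The remaining arrest genes moved by less. Ccng1, cyclin G1, which directs a phosphatase to Mdm2, rose by 0.31 on the log2 scale, and its 2 dimmer probe sets rose by 0.20 and 0.49. Btg2, an antiproliferative cofactor of mRNA decay, rose by 0.26, and its other probe set rose by 0.38. The Gadd45 family of small stress proteins was divided, since Gadd45a and Gadd45g rose and Gadd45b fell. Gadd45a had log2 levels of 9.22, 9.12 and 9.23 in the Atxn3-WT replicates and of 9.56, 9.61 and 9.61 in the Atxn3-KO replicates, with a log2 fold change of 0.41 (SE 0.049). Gadd45g had a log2 fold change of 0.36 (SE 0.063). Gadd45b had 11.15, 11.15 and 11.12 in the Atxn3-WT replicates and 10.88, 10.86 and 10.88 in the Atxn3-KO replicates, with a log2 fold change of -0.27 (SE 0.040). Another Gadd45b probe set had -0.29 and the dimmest had -0.079. In all 3 genes of this family the groups were separate. Sfn, the 14-3-3 sigma protein that holds cells before mitosis, had -0.11 (interval -0.34 to 0.11) from a dim mean level of 5.69 in Atxn3-WT MEFs. Plk3, a stress kinase, had 0.14 (interval -0.010 to 0.29), and Zmat3, an RNA-binding zinc finger protein, had 0.13 (limma adjusted p = 0.0752).

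**Figure D2:**
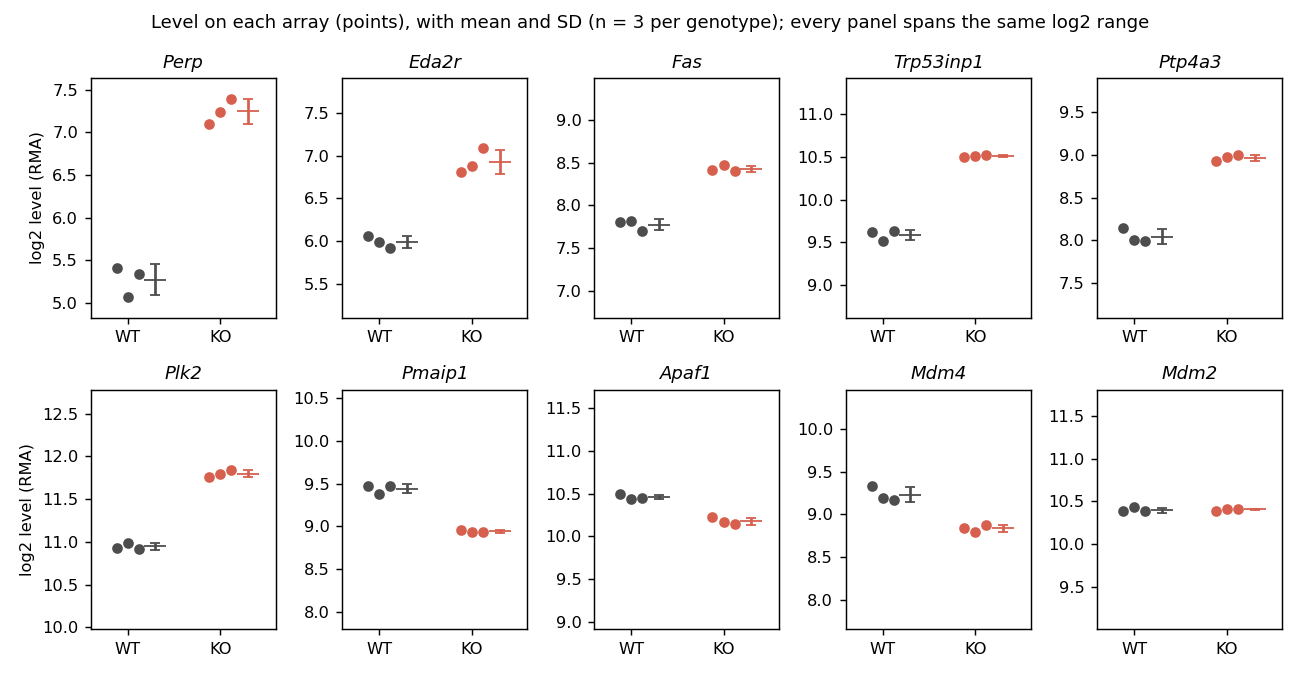
Log2 level on each array (vertical axis) of 10 p53 pathway genes in Atxn3-WT and Atxn3-KO MEFs (horizontal axis), with the mean and SD of 3 arrays beside the points; every panel spans the same log2 range. The groups are apart upward for Perp, Eda2r, Fas, Trp53inp1, Ptp4a3 and Plk2, apart downward for Pmaip1, Apaf1 and Mdm4, and overlap for Mdm2.

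Death genes held both the highest and the lowest change of the list. Of 13 measured genes, 9 rose, 3 fell and 1 did not pass, with a median log2 fold change of 0.21. The share that rose was 69.2%, beside 17.1% of all genes and 24.1% of genes at or above the median level. The share that fell was 23.1%, beside 14.7% and 20.7%, so the count of falls was near that of genes of such levels.

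At the cell surface, Perp, Eda2r and Fas rose, and Tnfrsf10b fell. Perp, a tetraspan membrane protein needed for p53-dependent death and for desmosomes in epithelia, had log2 levels of 5.41, 5.07 and 5.34 in the Atxn3-WT replicates and of 7.10, 7.24 and 7.39 in the Atxn3-KO replicates. The lowest Atxn3-KO array was 1.70 above the highest Atxn3-WT array, and Perp was 3.93-fold higher (log2 fold change 1.97, SE 0.11, limma adjusted p = 2.34e-05). Its level lay below the median but above the 25th percentile of the Atxn3-WT arrays, which ranged from 4.37 to 4.39. Because Perp is also an epithelial gene, epithelial markers were read beside it. Of 8 such markers, 2 rose (25%, beside 17.1% of all genes): Krt18, a simple keratin, by 1.27 on the log2 scale and Epcam by 0.38. At an unadjusted p under 0.05 limma called 3 higher and 0 lower. The third was Krt19, the brightest of the 8 at 9.18 to 9.71, with 0.28 and overlapping groups. Cdh1, the epithelial cadherin, had 0.0016 and lay at 3.90 to 3.99, the 1 marker of the 8 that stayed under the 25th percentile on every array. The mean log2 level of the 8 markers was 5.70 to 5.79 in the Atxn3-WT replicates and 5.95 to 6.06 in the Atxn3-KO replicates, and the part of these genes in the Perp result was not tested.

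Eda2r, the receptor for ectodysplasin A2 in the TNF receptor family, had 6.06, 5.99 and 5.92 in the Atxn3-WT replicates and 6.81, 6.88 and 7.09 in the Atxn3-KO replicates. The groups were separate, and Eda2r was 1.91-fold higher (log2 fold change 0.94, SE 0.079, limma adjusted p = 0.000201). Fas, the death receptor for Fas ligand, had 7.80, 7.82 and 7.70 in the Atxn3-WT replicates and 8.41, 8.47 and 8.40 in the Atxn3-KO replicates. Fas was 1.57-fold higher with no overlap (log2 fold change 0.65, SE 0.050, limma adjusted p = 0.000128). Tnfrsf10b, the receptor for the death ligand TRAIL, had 7.30, 7.28 and 7.23 in the Atxn3-WT replicates and 7.05, 6.97 and 6.93 in the Atxn3-KO replicates. The groups were separate, with a log2 fold change of -0.28 (SE 0.049, limma adjusted p = 0.00516), but its other probe set had 0.064 (limma adjusted p = 0.453), so the direction rests on 1 of 2 probe sets.

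At the mitochondria, the BH3-only genes went different ways. These encode small proteins that trigger release of cytochrome c. Pmaip1, which encodes Noxa, had 9.47, 9.38 and 9.47 in the Atxn3-WT replicates and 8.96, 8.93 and 8.94 in the Atxn3-KO replicates. All Atxn3-KO arrays were lower, with a log2 fold change of -0.49 (SE 0.046, limma adjusted p = 0.000306). Bid, which carries the signal of death receptors to mitochondria, had 9.42, 9.41 and 9.44 in the Atxn3-WT replicates and 9.73, 9.82 and 9.83 in the Atxn3-KO replicates. Bid rose by 0.37 on the log2 scale (SE 0.047), and its 2 other probe sets had 0.16 and 0.36. Bbc3, which encodes Puma, had -0.15 (limma adjusted p = 0.119). Apaf1, the scaffold that cytochrome c assembles into the apoptosome, had 10.49, 10.44 and 10.45 in the Atxn3-WT replicates and 10.22, 10.17 and 10.14 in the Atxn3-KO replicates. Apaf1 fell by 0.29 on the log2 scale (SE 0.045), and its dimmer probe set fell by 0.41.

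Genes of the death class that act in the nucleus, at lysosomes or on survival signals rose. Trp53inp1, a nuclear stress protein that aids p53 activity and takes part in autophagy, had 9.62, 9.52 and 9.63 in the Atxn3-WT replicates and 10.50, 10.51 and 10.52 in the Atxn3-KO replicates. The gap between the groups was 0.86, and Trp53inp1 was 1.89-fold higher (log2 fold change 0.92, SE 0.048, limma adjusted p = 2.11e-05). Its dimmer probe set had 0.26 (limma adjusted p = 0.0591). Dram1, a lysosomal regulator of autophagy, rose by 0.29, and Phlda3, which competes with Akt for membrane lipids, rose by 0.21. Aen, a nuclease of apoptotic cells, rose by 0.21 (limma adjusted p = 0.0352), but its 3 other probe sets had 0.13, -0.12 and -0.17 without passing, and with the mean of all its probe sets the Aen value was 0.012 (limma adjusted p = 0.888). Ei24, a protein of the endoplasmic reticulum, rose by 0.16 (limma adjusted p = 0.0349). Leaving out any 1 array other than Atxn3-KO replicate 1 ended the Aen call, leaving out any 1 array ended the Ei24 call, and leaving out Atxn3-KO replicate 2 ended the Phlda3 call.

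Of the metabolic genes, Ephx1 rose. Of 4 measured, 1 rose (25%, beside 17.1% of all genes and 24.1% of the brighter genes) and 0 fell, with a median log2 fold change of 0.078; at an unadjusted p under 0.05, limma called Sesn1 as well, also higher, and 0 lower. Ephx1, the microsomal epoxide hydrolase that detoxifies reactive compounds, had log2 levels of 10.05, 10.04 and 10.09 in the Atxn3-WT replicates and of 10.35, 10.39 and 10.31 in the Atxn3-KO replicates. The groups were separate, with a log2 fold change of 0.29 (SE 0.044, limma adjusted p = 0.00269). Sesn1 and Sesn2 encode sestrins, which restrain the growth kinase mTORC1 when nutrients are short. Sesn1 had 0.14 (limma adjusted p = 0.0548) with separate groups, and 2 dimmer Sesn1 probe sets passed with 0.34 and 0.18. Sesn1 itself passed under 7 of the 16 alternatives, with which 2 of the 4 metabolic genes rose. Sesn2 had 0.012 (interval -0.15 to 0.18), and Ddit4, another inhibitor of mTORC1, had 0.017 (interval -0.11 to 0.14). The arrays of both genotypes overlapped for Sesn2 and for Ddit4.

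DNA repair genes of the list rose but for Ddb2. With 4 measured, 3 rose (75%, beside 17.1% of all genes) and 0 fell (beside 14.7% of all genes). Xpc, which recognizes distorted DNA in nucleotide excision repair, had 7.60, 7.41 and 7.65 in the Atxn3-WT replicates and 8.06, 8.07 and 8.03 in the Atxn3-KO replicates. The lowest Atxn3-KO array was 0.37 above the highest Atxn3-WT array, with a log2 fold change of 0.495 (SE 0.067, limma adjusted p = 0.00165). Polk, a polymerase that copies past damaged bases, rose by 0.27, and Rrm2b, the ribonucleotide reductase subunit that p53 induces, by 0.14 (limma adjusted p = 0.0384). The 3 other Rrm2b probe sets had -0.029, 0.11 and 0.086 without passing, and the mean of all gave 0.077 (limma adjusted p = 0.13). The other Polk probe set had 0.13 (limma adjusted p = 0.293). The Polk call was lost without Atxn3-KO replicate 2, and the Rrm2b call was lost without any 1 array. Ddb2, which hands ultraviolet lesions to Xpc, had -0.079 (interval -0.20 to 0.042), and 0 repair genes were lower at an unadjusted p under 0.05 in limma.

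Set side by side, 6 of 10 arrest, 9 of 13 death, 3 of 4 repair and 1 of 4 metabolic genes rose, and 1, 3, 0 and 0 of them fell. Over all genes 17.1% rose and 14.7% fell, and over the brighter genes 24.1% rose and 20.7% fell. The metabolic share that rose (25%) and the death share that fell (23.1%) were near those of the brighter genes. The median log2 fold changes of these classes were 0.28, 0.21, 0.21 and 0.078. The difference between classes was not tested, and with 4 metabolic and 4 repair genes a single gene weighs heavily on a share. The sizes within a class varied more than the medians between classes, from -0.27 to 0.93 among arrest genes and from -0.49 to 1.97 among death genes.

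**Figure D3:**
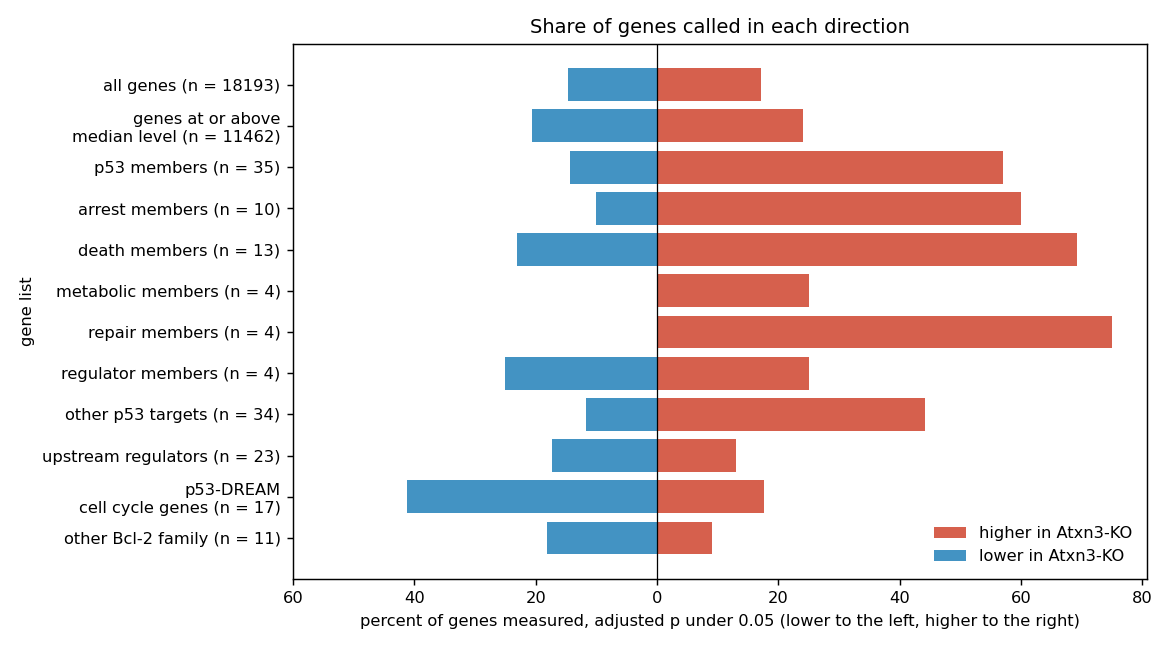
Percent of measured genes that were higher (right) or lower (left) in Atxn3-KO MEFs at an adjusted p under 0.05 (horizontal axis), for all genes, the p53 pathway genes and their classes, and further lists (vertical axis, with the number measured). The p53 pathway genes reach 57.1% on the right beside 17.1% for all genes, and 14.3% on the left beside 14.7%. The genes, classes and lists were chosen with earlier results of these data known, so the shares are not independent evidence.

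Other genes of the pathway were read from lists. Of 34 measured further target genes of p53, 15 rose (44.1%, beside 17.1% of all genes), 4 fell (11.8%, beside 14.7%) and 15 did not pass, with a median log2 fold change of 0.17. The largest changes were those of Abat, which breaks down the transmitter GABA, with 1.26 (SE 0.043), Ak1, an adenylate kinase, with 1.04 (SE 0.052), and Cd82, a tetraspanin that limits cell movement, with 0.67 (SE 0.048). Cdkn1a, the inhibitor p21 through which p53 arrests cells in G1, had log2 levels of 10.31, 10.22 and 10.44 in the Atxn3-WT replicates and of 10.53, 10.50 and 10.55 in the Atxn3-KO replicates. The groups were separate by 0.06, with a log2 fold change of 0.20 (SE 0.063, limma adjusted p = 0.0498). The Cdkn1a call stood under 7 of 16 alternatives and was lost under 9, among them leaving out any 1 array other than Atxn3-WT replicate 3, with adjusted p-values from 0.00414 to 0.127 from limma. The count of further targets that fell was 2 without Atxn3-WT replicate 3 or without Atxn3-KO replicate 2.

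Upstream of p53, 23 kinases, partners and ubiquitin regulators were measured, of which 3 rose (13%), 4 fell (17.4%) and 16 did not pass, near the 17.1% and 14.7% of all genes, with a median log2 fold change of -0.011. Hipk2, a kinase that phosphorylates p53 for death responses, rose by 0.63 on the log2 scale (SE 0.057). Cop1, another ubiquitin ligase for p53, fell by 0.27 (SE 0.041), and Ppp1r13l, the inhibitor iASPP, fell by 0.26 (SE 0.056). Cdkn2a, the locus of the Mdm2 inhibitor Arf and of p16, had 13.18, 13.19 and 13.18 in the Atxn3-WT replicates and 13.31, 13.27 and 13.27 in the Atxn3-KO replicates. These levels are separate and very bright, and the log2 fold change of Cdkn2a was 0.098 (limma adjusted p = 0.126). Cdkn2a did pass, as higher, with low levels left out (limma adjusted p = 0.0336) and with a variance trend (limma adjusted p = 0.003). The balance of the upstream counts depended on the scaling and the variance model. With arrays centred on their medians 7 rose and 3 fell, with low levels left out 8 rose and 4 fell, with a variance trend 8 rose and 5 fell, and with array weights 6 rose and 4 fell. With the mean of all probe sets 5 rose and 6 fell, and with probe set IDs ending in s, x or a left out 5 rose and 4 fell. The number of upstream genes that rose was 5 without Atxn3-KO replicate 3, and the number that fell was 2 without Atxn3-WT replicate 3. The shares of all genes called under each alternative are not given here. A change in these counts can therefore not be told from a change over all genes.

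Of 17 measured cell cycle genes that p53 lowers through the DREAM repressor complex, 7 fell (41.2%), 3 rose (17.6%) and 7 did not pass. Over all genes 14.7% fell and 17.1% rose. These genes are bright, with a lowest mean of 8.82 in Atxn3-WT MEFs, and of genes at or above the median level 20.7% fell and 24.1% rose. Mybl2, a transcription factor of the G2 program, fell by 0.62 (SE 0.049), Bub1b, a spindle checkpoint kinase, fell by 0.32 (SE 0.044), and Ccne2, cyclin E2, rose by 0.28 (SE 0.064). The median log2 fold change was -0.022. The 7 that fell became 4 without Atxn3-WT replicate 3, and 3 when Atxn3-KO replicate 2 was left out. The 3 that rose became 1 without any 1 array other than Atxn3-WT replicate 3. With the replicate block, 4 fell and 1 rose. Of 11 measured Bcl-2 family genes outside the list, 1 rose (9.09%, beside 17.1% of all genes) and 2 fell (18.2%, beside 14.7%). With 11 genes, 1 gene weighs heavily on such a share. With low levels left out 3 rose and 3 fell, and with the mean of all probe sets 2 rose and 4 fell. Bcl2, the founding inhibitor of cell death, fell by 0.45 (SE 0.067), Bak1, a pore-forming partner of Bax, fell by 0.27 (SE 0.045), and Bad, a BH3-only gene, rose by 0.24 (SE 0.059). The number of these genes that rose was 0 without Atxn3-KO replicate 1 or 2 and 2 genes without Atxn3-KO replicate 3. For these lists too, the shares of all genes under the alternatives are not given here.

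The other probe sets of the p53 pathway genes give a second reading of the same RNA. Of the 35 genes, 19 have more than 1 probe set, with 31 probe sets beside those used. Of the 31, 8 passed an adjusted p under 0.05 from limma. With 1 probe set for each gene, 17.1% of all genes rose and 14.7% fell, so passing alone does not set these probe sets apart. Among the 8, 6 had the direction of a probe set in use that had passed, 0 had the opposite direction, and 2 belong to Sesn1, whose probe set in use did not pass. Of the 23 other probe sets of genes that were called, 16 had the sign of the one in use. All 6 that passed with the call belong to Mdm4, Ccng1, Btg2, Gadd45b and Apaf1.

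**Figure D4:**
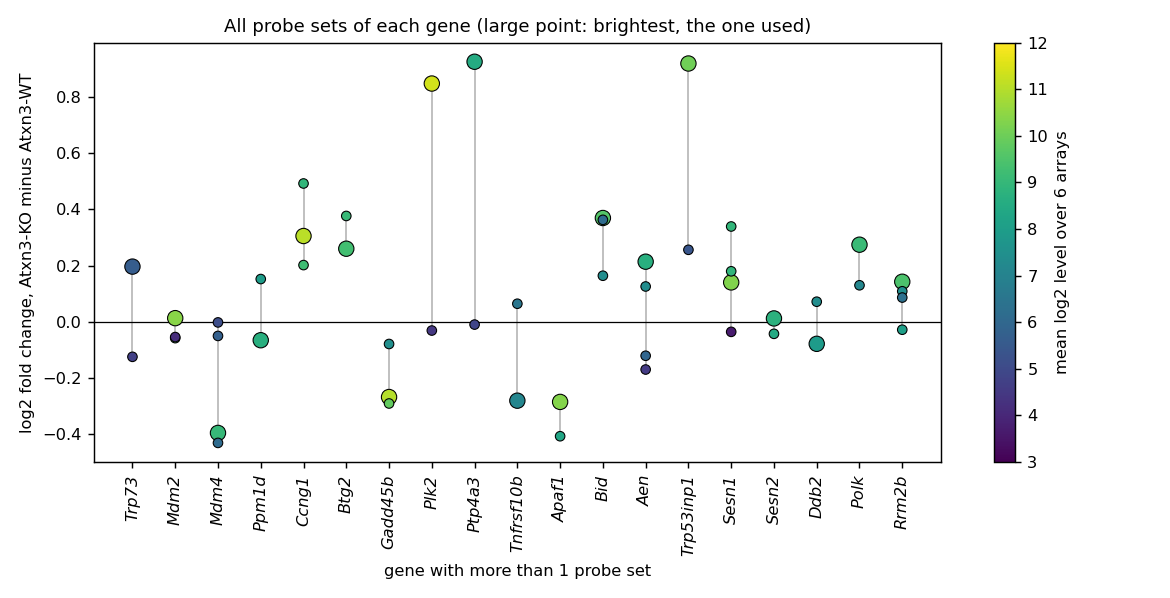
Log2 fold change, Atxn3-KO minus Atxn3-WT (vertical axis), of every probe set of the 19 p53 pathway genes with more than 1 (horizontal axis). Large points are the brightest probe set of a gene, the one used, and colour gives the mean log2 level; for Ptp4a3, Plk2 and Trp53inp1 the dim probe sets lie at -0.010, -0.031 and 0.26, below the used ones at 0.93, 0.85 and 0.92.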

How the data were processed

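Expression was measured in MEFs of both genotypes, 3 samples each, assigned to genotype by label. The authors deposited log2 values of Affymetrix mouse genome arrays, which their methods describe as normalized by RMA (background correction, quantile normalization and probe set summary; package versions are not given in the sources used here). Quantile normalization gives arrays the same distribution and hides a shift shared by most genes. From these values limma 3.58.1 in R 4.3.3 compared the genotypes with every array weighted equally, because the weights of the study's linear model are not named, and the Benjamini-Hochberg adjustment ran across 45037 probe sets, with 64 controls left out. Calls needed an adjusted p under 0.05. Gene names came from the platform annotation. Genes with an absolute log2 fold change of at least 0.5 past the threshold, and Mdm2, were named with full statistics, other listed genes by their values, and of each further list the 3 with the largest change, with Cdkn1a and Cdkn2a. The genes, classes and lists were chosen with earlier results of these data known, so their counts are not independent evidence. Alternatives were array weights, the replicate block, normalization, filters, variance models, rules for probe sets, and each array left out. Array number limits the precision, and the depth of arrays is not a count.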

Additional observations from a re-analysis of the deposited data

How the results depend on the processing

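Of the 25 called genes, 18 passed the threshold in the called direction under every alternative that fitted them. Over all 16 alternatives the number of p53 pathway genes that rose ranged from 14 to 21 and the number that fell from 4 to 6, and 1 gene, Perp, passed the study's thresholds in each. The shares of all genes called under each alternative are not given here, so these ranges were not set against them. Leaving out each array gave 14 to 17 higher, 5 to 6 lower and 1 past the study's thresholds, the lowest count of higher genes being that without Atxn3-KO replicate 2. Leaving out each array moved the median log2 fold change of the 35 genes between 0.15 and 0.22, that of death genes between 0.20 and 0.27, that of metabolic genes between 0.053 and 0.12, that of arrest genes between 0.26 and 0.30, that of repair genes between 0.19 and 0.23 and that of regulators between -0.038 and -0.019. With the mean of all probe sets of a gene, the median was 0.16 for all 35, 0.0011 for regulators (the sign turned from -0.027), 0.33 for arrest genes and 0.14 for repair genes. With low levels left out it was -0.066 for regulators and 0.31 for arrest genes, and with probe set IDs ending in s, x or a left out it was -0.060 and 0.23. Under the last of these Tnfrsf10b had 0.064, opposite in sign to the value reported. The causes were not tested. The replicate numbers did not pair the arrays, as same-numbered arrays correlated at 0.021, -0.023 and -0.036 in their deviations from the group means; with the replicate block 16 genes rose and 5 fell, Trp73, Aen, Ei24 and Rrm2b losing their calls, while the medians were unchanged. The alternatives for Cdkn1a, Cdkn2a and the further lists were added after seeing the data. No array signal over background is given in the values; the levels of Trp73 and Sfn, and of Perp in Atxn3-WT MEFs, lay under the median of the arrays.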
